A study of Mus musculus with 9 samples.

Results

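Regions of open chromatin that were called in monocyte-derived and in resident peritoneal macrophages, but not in converted ones, numbered 5289 of the 36843 regions in the 3 deposited peak lists (14.4%). They were found by merging peaks of all lists that overlapped by at least 1 bp and keeping each merged region with a peak of the monocyte-derived list, a peak of the resident list and none of the converted list. Members were thus chosen by the presence of peaks in these lists, and the presence, p-values and widths of the peaks are given as descriptions. The assay was ATAC-seq, in which Tn5 transposase places sequencing adapters into accessible DNA, on 9 samples of sorted mouse macrophages in 3 groups of 3. The monocyte-derived macrophages were taken from mice injected with 2 ml of thioglycollate, an irritant, and were collected on day 4. Converted macrophages came from mice that had received 2 ml of thioglycollate and a tamoxifen diet for 8 weeks. Resident macrophages have no treatment of their own in the labels. Mice of all groups had the genotype Cx3cr1CreERT2-IRES-EYFP/+ Rosa26-stopfl-tdTomato/+, so Cre is driven from the Cx3cr1 locus, and all were given complexes of 5 µg IL-4 and 25 µg anti-IL4 every other day, starting 4 days before harvest. Cell origin and treatment therefore differ together and cannot be told apart.

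Each group has 1 merged peak list, which leaves the values below without a replicate spread and without a p-value between groups. The monocyte-derived list held 33694 peaks, the converted list 15552 and the resident list 24348. Read depth is unknown, and a region missing from the converted list may be closed there or may lie below detection. The peak p-values are the authors' own and are used only to describe or rank peaks within their list. Intervals are at 95% (Wilson for shares, Newcombe for differences) and cover counting error over regions only.

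Accessible regions include promoters and distal elements such as enhancers, where transcription factors displace nucleosomes. In macrophages the ETS factor PU.1, encoded by Spi1, opens much of the lineage's distal landscape together with C/EBP, AP-1 and RUNX factors. IL-4 signals through Il4ra and the transcription factor Stat6 to a programme called alternative activation, whose genes include Arg1, Mrc1 and Retnla. Macrophages can also present peptides on MHC class II molecules, whose genes are switched on by the coactivator Ciita through promoter elements that include a CCAAT box bound by NF-Y.

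The 8 promoters below are printed because a member region covers part of each and because they carry the results on MHC class II, IL-4 signalling, the strongest members and the CCAAT motif. Each sequence is the RefSeq window (GRCm38.p6) of 250 bases before to 50 bases after a transcription start, 5′ to 3′ on the gene's strand. Capitals mark matches on either strand to the letters GAGGAAGT for PU.1, CCGGAAGT for ETS factors, TGANTCA for AP-1, TTGCNNAA for C/EBP, TGTGGTT for RUNX, AGATAAG for GATA factors, GGGGCGG for SP1, AGGGGGC for the CTCF core, CCAAT for NF-Y and CACGTG for the E-box. The IRF motif was GAAA, any 2 bases and GAAA again, and the NRF1 motif was GCGCA followed by its reverse complement. A loose NF-kappaB pattern, GGG, any 5 bases and CC, was counted but is not marked. A match is only a match of letters.
H2-Eb1: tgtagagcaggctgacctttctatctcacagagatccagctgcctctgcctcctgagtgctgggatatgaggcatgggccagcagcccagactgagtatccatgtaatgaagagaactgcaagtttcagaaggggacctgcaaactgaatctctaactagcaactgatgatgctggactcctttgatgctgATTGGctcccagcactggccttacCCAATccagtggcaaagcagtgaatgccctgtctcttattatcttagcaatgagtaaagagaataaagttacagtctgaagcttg
H2-DMb1: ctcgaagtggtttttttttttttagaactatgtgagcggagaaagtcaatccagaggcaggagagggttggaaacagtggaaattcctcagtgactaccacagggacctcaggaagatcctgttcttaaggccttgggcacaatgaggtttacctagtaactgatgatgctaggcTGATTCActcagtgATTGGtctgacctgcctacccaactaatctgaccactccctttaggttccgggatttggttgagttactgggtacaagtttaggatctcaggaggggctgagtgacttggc
Retnla: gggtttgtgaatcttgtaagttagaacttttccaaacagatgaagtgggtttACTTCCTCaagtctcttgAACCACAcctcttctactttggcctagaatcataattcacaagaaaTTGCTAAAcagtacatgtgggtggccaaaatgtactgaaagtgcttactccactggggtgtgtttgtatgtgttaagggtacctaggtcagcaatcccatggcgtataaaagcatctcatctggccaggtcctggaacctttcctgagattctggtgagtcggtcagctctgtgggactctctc
Stat6: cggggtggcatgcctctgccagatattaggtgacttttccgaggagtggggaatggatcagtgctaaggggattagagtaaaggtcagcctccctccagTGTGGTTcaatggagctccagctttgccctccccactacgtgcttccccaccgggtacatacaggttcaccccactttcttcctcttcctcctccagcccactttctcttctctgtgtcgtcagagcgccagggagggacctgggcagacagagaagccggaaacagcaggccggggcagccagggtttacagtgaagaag
Pkm: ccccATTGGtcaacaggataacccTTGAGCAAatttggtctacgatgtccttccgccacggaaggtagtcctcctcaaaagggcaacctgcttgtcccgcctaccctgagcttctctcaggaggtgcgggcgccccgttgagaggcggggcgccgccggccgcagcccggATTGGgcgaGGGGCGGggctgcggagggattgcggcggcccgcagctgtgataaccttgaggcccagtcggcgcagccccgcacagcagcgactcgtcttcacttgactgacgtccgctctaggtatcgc
Snrnp70: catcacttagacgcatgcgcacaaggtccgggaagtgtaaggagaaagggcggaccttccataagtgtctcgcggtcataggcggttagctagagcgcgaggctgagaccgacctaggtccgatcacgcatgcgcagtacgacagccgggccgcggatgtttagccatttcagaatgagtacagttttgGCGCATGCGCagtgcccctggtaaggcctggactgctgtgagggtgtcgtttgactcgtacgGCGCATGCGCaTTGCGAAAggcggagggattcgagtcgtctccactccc
Dctn2: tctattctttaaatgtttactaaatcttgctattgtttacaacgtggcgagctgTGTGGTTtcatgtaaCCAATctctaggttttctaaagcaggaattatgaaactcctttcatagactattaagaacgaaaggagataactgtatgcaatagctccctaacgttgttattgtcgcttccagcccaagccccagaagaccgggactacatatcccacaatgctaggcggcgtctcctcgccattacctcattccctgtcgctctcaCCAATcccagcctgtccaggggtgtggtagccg
Top2a: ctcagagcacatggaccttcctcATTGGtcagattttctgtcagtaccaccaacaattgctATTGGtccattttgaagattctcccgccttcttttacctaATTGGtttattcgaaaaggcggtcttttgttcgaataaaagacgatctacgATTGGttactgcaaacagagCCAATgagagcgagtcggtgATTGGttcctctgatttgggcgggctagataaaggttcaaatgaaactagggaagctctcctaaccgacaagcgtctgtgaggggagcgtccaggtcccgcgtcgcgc
The window of H2-Eb1, an MHC class II beta chain gene, lies at chr17:34305617-34305916 on the plus strand, and the member region spans bases -178 to -4 from the start, over 2 CCAAT matches. That of H2-DMb1, a chain of the peptide-exchange molecule H2-DM, lies at chr17:34152941-34153240 on the plus strand, with the region at -177 to -28 over 1 AP-1 and 1 CCAAT match. Retnla, a secreted protein induced by IL-4, has its window at chr16:48842359-48842658 on the plus strand. There the region spans -195 to 129 and the window holds 1 match each to PU.1, C/EBP and RUNX. The Stat6 window, chr10:127642736-127643035 on the plus strand, is covered from -147 to 52 and holds 1 RUNX match. Pkm, which encodes pyruvate kinase, has its window at chr9:59656326-59656625 on the plus strand, covered by a region that runs from -387 to 12 and reaches 2 CCAAT, 1 SP1 and 1 C/EBP match. Those of Snrnp70, a U1 spliceosome protein gene (chr7:45395693-45395992, minus strand), and Dctn2, a dynactin subunit gene (chr10:127266012-127266311, plus strand), are covered from -221 to 128 for Snrnp70 and from -98 to 126 for Dctn2. Snrnp70 holds 2 NRF1 matches and 1 C/EBP match, and Dctn2 2 CCAAT matches and 1 RUNX match. Top2a, the DNA topoisomerase gene of dividing cells (chr11:99024140-99024439, minus strand), holds 6 CCAAT matches under a region from -274 to 75.

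The members were mostly narrow regions with moderate p-values. They covered 1.05 Mb, with a median width of 175 bp (quartiles 150 and 225 bp, range 75 to 700 bp), while regions of all 3 lists had a median of 275 bp. In 4382 members both lists gave a single peak, and the bases covered by monocyte-derived peaks had a median of 175 bp, against 125 bp for resident peaks. In regions of all 3 lists these medians were 275 bp for monocyte-derived and 225 bp for resident peaks. The monocyte-derived peak was the wider in 3851 members (72.8%), the resident peak in 745, and 693 had equal widths. The share with a wider monocyte-derived peak was 71.5% in regions of all 3 lists, so it was not particular to members. The smallest p-value that the lists contain, 1e-12, was reached by the monocyte-derived peak of 380 members (7.18%) and by the resident peak of 31 (0.586%), and by both in 10. Among regions of all 3 lists 51.9% had this value among monocyte-derived peaks and 28.6% among resident peaks.

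Whether a region shared by the monocyte-derived and resident lists also had a converted peak went with its rank in those lists. Of 15645 shared regions, 33.8% were members. In the monocyte-derived list, members made up 6.61% of shared regions at the smallest p-value (380 of 5753) and 41.5% of those from there to 1e-06. Among shared regions with a monocyte-derived p-value between 5e-06 and 1e-05 they made up 55.8%, and above 1e-05 70.4% (157 of 223). In the resident list the share was 1.03% at the smallest p-value (31 of 2997), 37.0% between 3e-06 and 5e-06, 53.8% between 5e-06 and 1e-05 and 41.1% above 1e-05. The share was 93.0% among shared regions of 75 to 100 bp, 49.4% at 175 to 200 bp and 4.33% above 400 bp. Members were thus rare among the regions that rank first in either list.

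**Figure D1:**
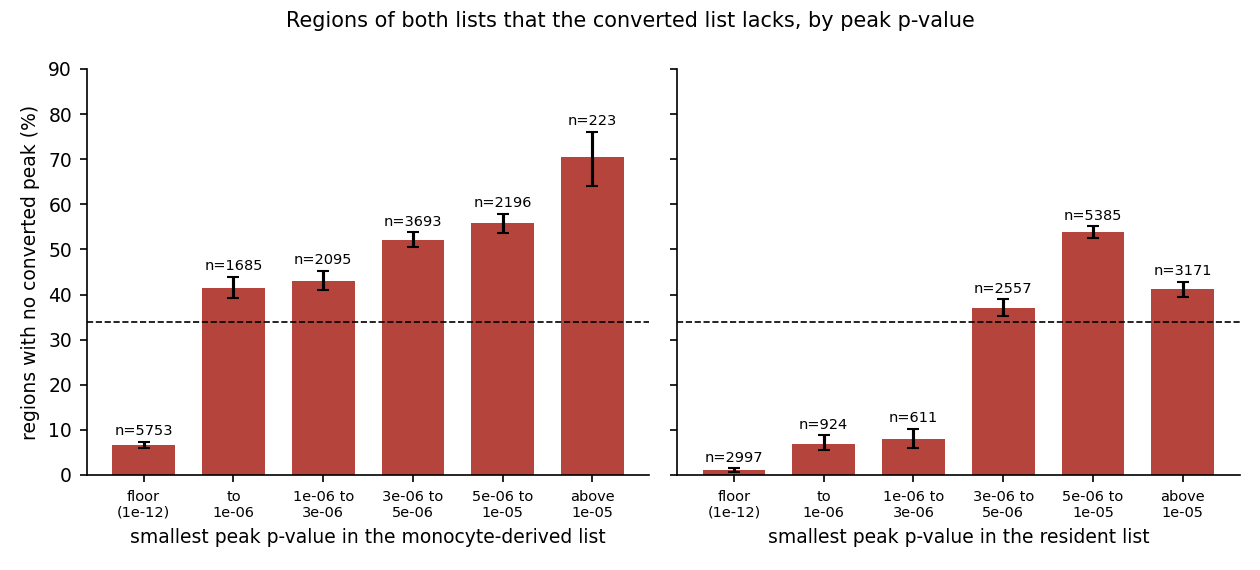
Bars give the share (%) of regions called in both the monocyte-derived and the resident list that have no converted peak, by the smallest peak p-value of the region on the monocyte-derived side (left) and on the resident side (right). Black lines are 95% Wilson intervals, n is the number of regions in a bin, and the dashed line is the share over all 15645 regions. At the smallest p-value the bars stand at 6.61% and 1.03%, and they reach 70.4% and 53.8% in the highest bins of each panel.

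The class changed in number and in content with the threshold. When every list was held to p at most 1e-05, 3851 regions met the rule, 3844 of them overlapping a member. At p at most 1e-06 in every list 679 did, of which 43 overlapped one of the 5289, and at p at most 1e-10 603 did, of which 10 overlapped one. When the monocyte-derived and resident lists were cut to the length of the converted list, 1307 regions remained in the class, and 1301 of them overlapped a member. The values below are for the 5289 unless a setting is named.

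There were 10 members at the smallest p-value in both lists, and they included promoters of genes used in most cells. At Pkm the member (chr9:59656189-59656588) had 400 bp of monocyte-derived and 300 bp of resident peak, and a converted peak lay 50 bp away. At Snrnp70 (chr7:45395614-45395963) the monocyte-derived peak covered 350 bp, the resident peak 250 bp, and the nearest converted peak was 28.15 kb away. The Dctn2 promoter member (chr10:127266164-127266388) was covered in full by both peaks, with the nearest converted peak at 22.55 kb. In Cask, a scaffold kinase gene, a 425 bp member (chrX:13846489-13846913) had no converted peak within 804.55 kb. The promoter of Smim7, beside Tmem38a, had a 325 bp member (chr8:72570939-72571263) with a converted peak at 125 bp. The remaining 5 were nearest to Trappc8, Zfp493, Ino80c, Sfi1 and Bicd1. After members in Sfi1 and Jarid2 came one inside Msr1, the class A scavenger receptor gene of macrophages (chr8:39618914-39619138), whose p-value was 1e-12 in the monocyte-derived and 1.49e-08 in the resident list. It lay 23.97 kb from the nearest converted peak.

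The widest members were wide chiefly in the monocyte-derived list. A 700 bp member inside a gene and 151 bp from an end of Sirt4, a mitochondrial sirtuin gene (chr5:115489414-115490113), had 700 bp of monocyte-derived and 250 bp of resident peak. Near Tlr6, a Toll-like receptor gene, the member was 600 bp wide (chr5:64960814-64961413), with 600 bp of monocyte-derived and 125 bp of resident peak. Per1, a circadian clock gene, was more even, with 550 bp of monocyte-derived and 450 bp of resident peak in a 600 bp member. The member at the promoter of Rhoa, a small GTPase gene, measured 575 bp, all of it in the monocyte-derived and 325 bp in the resident peak, and its nearest converted peak was 15.47 kb away.

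Members lay near genes less often than regions of all 3 lists and more often than regions of a single list. Of the members 42.1% (40.7 to 43.4%) were no more than 1 kb from the end of a protein-coding gene, against 58.3% of regions in all 3 lists, a difference of -16.3 percentage points (-17.9 to -14.6). With every list held to p at most 1e-06 or 1e-10, which changes most of the class, 66.7% and 69.7% of members lay near a gene end and the differences were -8.93 and -8.80 points. Regions of the monocyte-derived list alone had 24.4% and those of the resident list alone 25.4%, so members exceeded the monocyte-derived ones by 17.7 points (16.2 to 19.2) and the resident ones by 16.7 points (14.8 to 18.6). Regions of the monocyte-derived and converted lists alone came nearer to members, with 38.9% (36.3 to 41.5%) near a gene end and a median width of 175 bp. Those of the converted and resident lists alone had 23.2% near a gene end. Inside a gene body lay 69.2% of members, against 79.5% of regions in all 3 lists and 70.2% of those in the monocyte-derived and converted lists alone. The other members were distal by this measure: 1749 (33.1%) were inside a gene and over 1 kb from its ends, and 1315 (24.9%) lay outside genes and over 1 kb away. The median distance to a gene end was 2.91 kb for members and 0.298 kb for regions of all 3 lists.

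Narrow regions showed little of this gap. Among shared regions of 75 to 100, 125 to 150 and 175 to 200 bp, members minus regions of all 3 lists came to 0.852 (-17.4 to 17.0), -3.73 (-8.33 to 0.821) and -1.94 points (-5.42 to 1.55) in the share near a gene end. The gap was -8.94 points at 225 to 250 bp and -38.8 (-48.3 to -28.1) above 400 bp, where 86 of 1985 shared regions were members. At the smallest monocyte-derived p-value it was -24.9 points (-29.9 to -19.7). Width and p-value thus move with the position of members, and their part in the difference was not tested.

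Around transcription starts the members formed a lower peak, with a smaller share of the centres upstream of the start. The RefSeq promoter table holds 19 chromosomes, with 5120 members, and has no entries for chromosome 18. Of these members 37.5% had their centre within 1 kb of a start, against 54.6% of regions in all 3 lists. Among those within 1 kb, 59.2% of member centres lay upstream of the start, against 68.7%, and the median offset was -20.5 bp, against -43 bp. A promoter window of 300 bases was overlapped by 25.3% of members (24.1 to 26.5%) and by 45.4% of regions in all 3 lists, a difference of -20.1 points (-21.6 to -18.5). Members overlapped 7.08% of all 21020 windows.

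**Figure D2:**
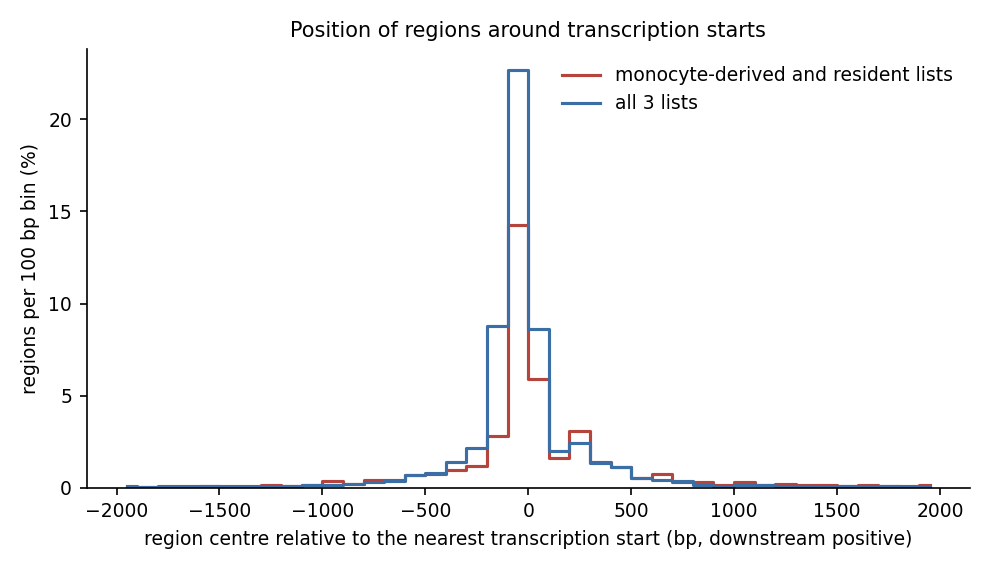
Lines give the share (%) of regions whose centre falls in each 100 bp bin around the nearest transcription start, downstream positive, for members (red) and regions of all 3 lists (blue). Both lines peak just upstream of the start, and within 1 kb lie 37.5% of members and 54.6% of regions in all 3 lists.

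Most members stood far from any converted peak, as did most regions of a single list. The median gap was 20.2 kb, against 20.7 kb for regions of the monocyte-derived list alone and 29.3 kb for those of the resident list alone. A converted peak lay within 100 kb of 84.2% of members, 83.9% of the monocyte-derived-only and 75.6% of the resident-only regions. None lay within 100 kb for 837 members, and none within 1 kb for 4125. A converted peak within 1 kb was found for 1164 members (22.0%, 20.9 to 23.1%), against 17.5% of regions of the monocyte-derived list alone and 21.0% of those of the resident list alone. For 647 members the gap was at most 200 bp, and in 585 of these (90.4%) the converted peak belonged to a region of all 3 lists, so the member was a shoulder or neighbour of a shared region. Of these 647, 70.3% lay within 1 kb of a gene end, against 35.6% of the 4125 with no converted peak within 1 kb. Just inside the rule stood 69 members with a gap of at most 25 bp (median width 150 bp). Just outside it stood 14 regions of all 3 lists whose converted peak overlapped another peak by at most 25 bp (median width 175 bp).

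**Figure D3:**
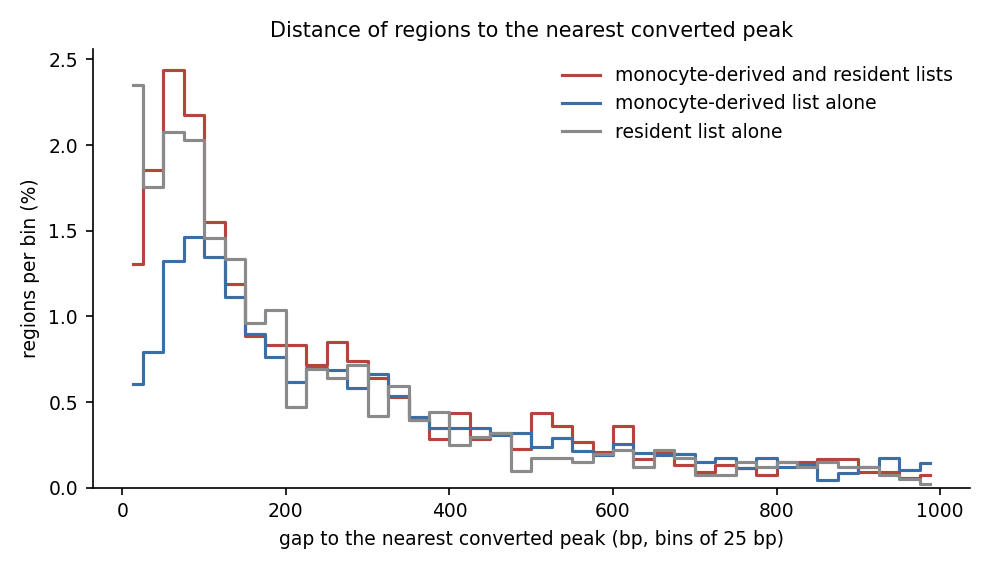
Lines give the share (%) of regions in 25 bp bins of the gap to the nearest converted peak, up to 1 kb, for members (red), regions of the monocyte-derived list alone (blue) and regions of the resident list alone (grey). All 3 lines are highest under about 200 bp, where 12.2% of members, 8.31% of monocyte-derived-only and 13.0% of resident-only regions lie.

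Members were spread over all chromosomes in the lists. They made up between 30.5% of shared regions on chromosome 3 and 41.6% on chromosome X (129 of 310), with 41.1% on chromosome 19. The densest window of 100 kb was chr11:3100001-3200000 around Sfi1, a centrosomal gene, with 21 members among 166 regions of any kind. It also held 65 regions of all 3 lists, so it was dense in other classes too. Without it 5268 members remained with 42.2% near a gene end. The next windows held 7 members each, at chr7:5000001-5100000 (Zfp524, U2af2 and Epn1 among others) and at chr7:25200001-25300000 (Gsk3a, Erf and Cic among others). On chromosome X, 7800001 to 7900000 held 6 members and no region of all 3 lists, beside Pim2 and Otud5.

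Of 21631 protein-coding genes, 22.9% (4950) had a member in the gene body or 10 kb on each side. With every list held to p at most 1e-06 it was 4.06%, and at equal list lengths 6.85%. Among the 10644 genes with a region shared by the monocyte-derived and resident lists in that window, the share was 46.5%. A single member was found for 3799 genes, and 891 had 2. For 1907 genes (38.5% of the 4950) there was a member and no converted region. Genes with more regions have more chances to hold a member, so a list rich in regions stands above 22.9% for that reason as well, and the share of its shared regions that are members, 33.8% over the genome, is given beside it.

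Apart from Sfi1 with 20, the genes with most members were Zmiz1 and Magi2, with 7 each. Zmiz1, a transcriptional coregulator gene, had 23 regions of which 7 were members, 15 were of the monocyte-derived list alone, 1 of the resident list alone and none had a converted peak. The 7 ran from 25464639 to 25646338 on chromosome 14. The first 6 lay between 5.55 and 71.4 kb downstream of the gene's start. Aldh3b1, an aldehyde dehydrogenase gene, had 5 regions within 10 kb and all were members, among them those at the starts of Tcirg1 and Ndufs8. Gsk3a, a glycogen synthase kinase gene, had 5 members of 6 regions, 3 of them in a row at its own start (chr7:25237714-25237988, chr7:25238039-25238263 and chr7:25238339-25238613). Etv6, an ETS repressor gene, Nav1, Ppp3ca, Tmem135 and Hjurp had 5 members each. How reads were placed in the dense window around Sfi1, or where copies of a sequence are alike, as in the Ugt1a genes beside Hjurp, was not tested.

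**Figure D4:**
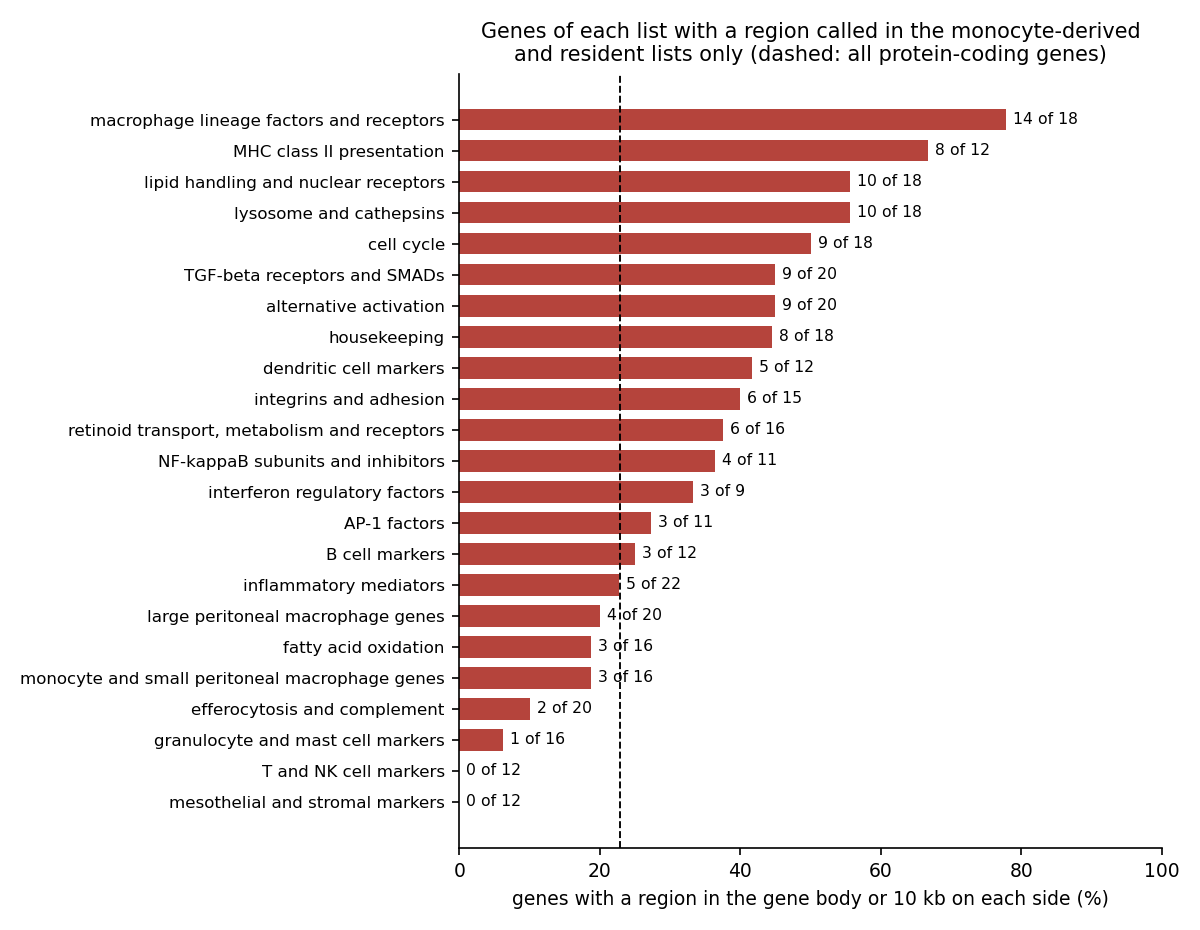
Bars give the share (%) of each list's genes that have a member in the gene body or 10 kb on each side, with the counts at the bar ends, and the dashed line is the 22.9% of all protein-coding genes. The macrophage lineage list stands highest with 14 of 18 genes, and T and NK cell markers and mesothelial and stromal markers have 0 of 12 each.

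Genes of macrophage identity held members more often than any other of the 23 lists drawn up for this comparison. Of 18 lineage factors and receptors 14 had a member (77.8%, 54.8 to 91.0%, against 22.9% of all genes), and 18 of their 36 shared regions were members (50.0%, 34.5 to 65.5%, against 33.8%). All 18 genes had a shared region. This standing was not kept with shorter lists. At equal list lengths 1 of the 18 genes kept a member, Mef2c, against 6.85% of all genes, and with every list held to 1e-06 no gene of the 18 had one. Spi1 had 1 member, 250 bp wide (chr2:91082939-91083188), 565 bp inside the gene from its nearer end, with p-values of 3.74e-06 in the monocyte-derived and 3.39e-06 in the resident list. Its other 2 regions were of the monocyte-derived list alone, so Spi1 had no converted region. Csf1r, the receptor for the macrophage growth factor CSF1, had 1 member (chr18:61127589-61127838) and 1 region of all 3 lists. Mef2c, a MADS-box factor gene, had the most, 4 members among 19 regions. The 2 strongest by monocyte-derived p-value, chr13:83604389-83604563 and chr13:83609189-83609538, reached 1e-12 there, with 1.05e-05 and 4.69e-06 in the resident list. They lay 2.38 and 7.17 kb from a converted peak.

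Most other lineage genes had a single member. That of Maf (chr8:115707214-115707388), a transcription factor gene, lay 320 bp outside the gene, with a converted peak 450 bp away. Tyrobp, the adaptor DAP12, had 2 members of 6 regions, 1 of them 869 bp outside the gene and the other 435 bp from an end of the neighbouring Hcst, and no converted region. Mertk, a receptor for apoptotic cells, had 1 member 552 bp outside the gene, with the nearest converted peak 119.45 kb away. The member counted for Cd68 lay at the start of its neighbour Mpdu1. Adgre1, the F4/80 gene, had 1 member beside 3 regions of the resident list alone. Runx1, Fli1, Zeb2, Fcgr1 and Itgam had 1 each. Cebpa, Cebpb, Irf8 and Lyz2 had none.

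MHC class II presentation came second by genes, and most of its shared regions were members. Of 12 genes, 8 had one (66.7%, 39.1 to 86.2%), and 14 of 19 shared regions were members (73.7%, 51.2 to 88.2%, against 33.8%), a region between H2-Aa and H2-Eb1 counting for both. Of the 8 genes, 5 had no converted region: Ciita, H2-Ab1, H2-DMb1, H2-Eb1 and Cd74. Cd74, the invariant chain, had 3 members of 6 regions on chromosome 18, at 60803589 to 60803738, 60805839 to 60805988 and 60807339 to 60807538, and the nearest converted peak was 28.95 kb away. The H2-Eb1 promoter member (chr17:34305689-34305863) had p-values of 1.50e-06 in the monocyte-derived and 6.37e-06 in the resident list, and 13.9 kb separated it from a converted peak. That of H2-DMb1 (chr17:34153014-34153163) had 5.24e-06 in the monocyte-derived and 3.39e-06 in the resident list. Ciita had 1 member deep inside the gene (chr16:10500789-10500988), 20.77 kb from its nearer end. Cd86, a costimulatory ligand, had 3 members of 10 regions, 1 of them at chr16:36665964-36666138, 20 bp from an end of the gene. Near H2-DMa a 575 bp member (chr17:34119064-34119638) lay 549 bp downstream of the start of Brd2, with 575 bp of monocyte-derived and 75 bp of resident peak. Cd80 and Rfx5 had shared regions and no member, and Cd40 and Ctss had no shared region. At equal list lengths H2-Eb1 and Cd86 kept a member, and with every list held to 1e-06 no gene of the 12 had one. Of all genes, 6.85% had one at equal list lengths and 4.06% at 1e-06.

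Among alternative activation genes 9 of 20 had a member (45.0%, 25.8 to 65.8%, against 22.9% of all genes). Of their shared regions 11 of 26 were members (42.3%, 25.5 to 61.1%), an interval that holds the 33.8% over the genome. The IL-4 receptor and its factor held 2 each. Stat6 had 1 at its start (chr10:127642839-127643038), with p-values of 8.42e-06 in the monocyte-derived and 5.63e-06 in the resident list, and 1 of 475 bp at the start of the neighbouring Nab2 (chr10:127666664-127667138), 625 bp from a converted peak. Il4ra had 1 member 2.34 kb downstream of its start (chr7:125554514-125554713) and 1 beyond its other end (chr7:125581439-125581638). The first lay 0.9 kb from a converted peak. Of the targets of this pathway, Retnla had 1 member over its start (chr16:48842414-48842738), 325 bp wide, 1 region of the resident list alone and no converted region. Arg1, the arginase gene, had 8 regions, of which 1 was a member at an end of the gene (chr10:24927339-24927588), 2 were in all 3 lists and 5 in the monocyte-derived list alone. Mrc1, the mannose receptor gene, had 1 member 20.82 kb inside the gene (chr2:14250239-14250338), and no converted region. Socs1, a brake on cytokine signalling, had 1 member 565 bp upstream of its start. Klf4 had 1 member 414 bp outside the gene and 75 bp from a converted peak. With no converted peak allowed within 1 kb, neither Socs1 nor Klf4 kept a member. Irf4 had 1 region, of all 3 lists, and no member. At equal list lengths Stat6, Il4ra and Socs1 kept a member, 3 of 20 genes, against 6.85% of all genes.

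Of 18 lysosome genes, 10 had a member (55.6%, 33.7 to 75.4%, against 22.9% of all genes). Of their shared regions 17 of 34 were members (50.0%, 34.1 to 65.9%, against 33.8% over the genome). Atp6v1a, a subunit of the proton pump, had 3 members and 3 regions of the monocyte-derived list alone. The 3 lay side by side around its own start and that of Naa50, at chr16:44138939-44139138, chr16:44139564-44139913 and chr16:44140414-44140738, all at 1e-12 in the monocyte-derived list. In the resident list their p-values were 1.18e-05, 8.27e-06 and 5.63e-06. Mcoln1, a lysosomal calcium channel gene, had 3 members at starts of the neighbouring Pnpla6. At equal list lengths 5 of the 18 genes, among them Ctsb, Atp6v0a1, Atp6v0d2 and Atp6v1a, kept a member, against 6.85% of all genes.

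In lipid handling 10 of 18 genes had a member (55.6%, 33.7 to 75.4%, against 22.9% of all genes). Of their shared regions 12 of 32 were members (37.5%, 22.9 to 54.7%), near the 33.8% over the genome. Msr1 had 2, next to each other inside the gene. Abca1, the cholesterol exporter, had 1 at its start (chr4:53159914-53160063), with a converted peak 1.02 kb away. Cd36, a fatty acid and scavenger receptor gene, had 1 inside the gene, 2.58 kb from a converted peak. Fatty acid oxidation had members in 3 of 16 genes (18.8%, 6.59 to 43.0%), near the 22.9% of all genes. Of its shared regions 3 of 24 were members (12.5%, 4.34 to 31.0%, against 33.8% over the genome). Acadvl, Etfa and Echs1 had the 3. Efferocytosis and complement genes had 2 of 20, Itgav and Cfp (10.0%, 2.79 to 30.1%), with 2 of 13 shared regions (15.4%, 4.33 to 42.2%). Both intervals hold the background.

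Genes that separate peritoneal macrophage populations held members at shares near the background of 22.9%. Of 20 large peritoneal macrophage genes 4 had one (8.07 to 41.6%), F10, Ltbp1, Vsig4 and Bhlhe40, with 4 of 21 shared regions (7.67 to 40.0%). Gata6, the factor of resident peritoneal macrophages, had 2 regions of the converted list alone, 1 of the resident list alone and no member. Of 16 monocyte and small peritoneal macrophage genes 3 had one (18.8%, 6.59 to 43.0%), Nr4a1, Retnla and Clec10a. Cx3cr1 had 2 regions, both of the monocyte-derived list alone, and Ccr2 none in any list. Retinoid genes had 6 of 16 (Rarg, Rxrb, Dhrs3, Rdh10, Crabp2 and Cyp26b1), with 6 of 20 shared regions, and Rxra none. With lists of equal length the large peritoneal macrophage list kept 1 gene with a member, the monocyte list none and the retinoid list 1. Of all genes 6.85% had a member at that setting.

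Signalling lists are set beside backgrounds of 22.9% of genes and 33.8% of shared regions. Integrins had 6 of 15 genes and 9 of 17 shared regions (52.9%, 31.0 to 73.8%). Itga6, which had no other region, and Itgb2 had 2 members each. TGF-beta receptors and SMADs had 9 of 20 genes and cell cycle genes 9 of 18, with 10 of 28 and 12 of 31 shared regions. Inflammatory mediators had 5 of 22 genes, near the background, and 6 of 12 shared regions. Tlr4 had 2, the stronger at 1e-12 in the monocyte-derived list (chr4:66843314-66843538), Il1b 1 at 2.35 kb upstream of its start and Il12b 1 at 0.900 kb outside the gene. AP-1 factors had 3 of 11 genes, NF-kappaB subunits and inhibitors 4 of 11 and interferon regulatory factors 3 of 9. Batf had 2 members, and the Nfkbia member (chr12:55491814-55492163) had p-values of 1e-12 in the monocyte-derived and 1.85e-07 in the resident list. The Nfkbia member lay 275 bp from a converted peak. Housekeeping genes had 8 of 18, with 11 of 32 shared regions (34.4%), close to the 33.8% over the genome. The share of all genes with a member fell to 6.85% at equal list lengths. At equal list lengths members were left at 2 of 15 integrin, 2 of 20 TGF-beta, 3 of 18 cell cycle, 2 of 18 lipid handling, 1 of 16 fatty acid oxidation, 1 of 20 efferocytosis and complement, 2 of 22 inflammatory, 1 of 11 AP-1, 2 of 11 NF-kappaB, 1 of 9 interferon regulatory factor and 4 of 18 housekeeping genes.

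Markers of other cells that a sort of peritoneal cells could contain were checked beside these lists. The backgrounds are again 22.9% of genes and 33.8% of shared regions. T and NK cell markers and mesothelial and stromal markers had members in 0 of 12 genes each, and 6 and 8 of those genes had no region in any list. Granulocyte and mast cell markers had 1 of 16, Siglecf. B cell markers had 3 of 12 genes (25.0%, near the 22.9% of all genes), and 5 of the 12 genes had no region. Of their shared regions 7 of 11 were members (63.6%, 35.4 to 84.8%, against 33.8% over the genome), 4 at Bach2, 2 at Blnk and 1 at Fcrla. Dendritic cell markers had 5 of 12 genes (41.7%, 19.3 to 68.0%) and 8 of 20 shared regions (40.0%, 21.9 to 61.3%). Both intervals hold the background. Among the 8 regions were 2 at Clec9a and 2 counted for Xcr1 that lie at the start of Fyco1. With lists of equal length 2 B cell genes, Fcrla and Bach2, and no dendritic cell gene kept a member, against 6.85% of all genes. Macrophages express several of these genes too, and the part of other cells in the members was not tested.

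Promoters under members were less rich in G and C than those under regions of all 3 lists. Among 21020 windows of 17251 genes, 1382 windows (1253 genes) held a member and no region of all 3 lists, 5111 held a region of all 3 lists and no member, 106 held both and 12302 held no region. The median GC content was 60.7% in the first set, 63.7% in the second and 51.3% in windows with no region, and the median number of CpG sites was 21, 24 and 5. The 2119 windows that held regions of other classes only had the same medians as member windows, 60.7% and 21. The lower GC content was thus not particular to members.

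CCAAT differed most of the 13 motifs searched, in points. It occurred on either strand in 36.0% of member windows (33.5 to 38.5%), against 47.7% of windows under regions of all 3 lists (46.3 to 49.1%) and 38.5% of all windows, and members minus regions of all 3 lists came to -11.7 points (-14.6 to -8.83). Windows with no region had 36.2%, next to the members. The share in windows that held regions of other classes only was not computed, so the values do not show a trait particular to members. SP1 letters were found in 44.1% of member windows, against 53.6% under regions of all 3 lists and 31.1% of all windows. The loose NF-kappaB pattern, which overlaps SP1 letters, gave 68.4% in member windows, 74.0% under regions of all 3 lists and 57.6% overall. GC content moves with the SP1 and NF-kappaB shares, and its part was not tested. At p at most 1e-06 and 1e-10 the CCAAT share of member windows was 43.6% (39.0 to 48.4%) and 47.2% (42.3 to 52.1%), above that of all windows. At equal list lengths it was 39.2% (34.4 to 44.3%), an interval that holds the 38.5% of all windows. The CCAAT difference to regions of all 3 lists was between -13.4 and -11.0 points under 7 other settings, p at most 1e-06 and equal list lengths included. The promoters of Top2a, Dctn2, Pkm, H2-Eb1 and H2-DMb1 printed above are among the member windows that do hold CCAAT, and those of Stat6, Retnla and Snrnp70 are not.

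PU.1 letters occurred in 3.04% of member windows, 3.25% of those under regions of all 3 lists and 3.15% of all windows. ETS letters were in 11.2% of member windows, 9.98% of those under regions of all 3 lists and 5.20% of all windows. For AP-1 letters the shares of the same sets were 4.34% (members), 3.68% (all 3 lists) and 7.04% (all windows). NRF1, a factor of genes for mitochondria and growth, had its palindrome in 3.55% of member windows, against 2.25% under regions of all 3 lists and 1.34% of all windows, 1.30 points more than under regions of all 3 lists (0.334 to 2.47). C/EBP letters were in 8.39% of member windows, against 6.79% under regions of all 3 lists and 10.3% of all windows, 1.60 points more than under regions of all 3 lists (0.0739 to 3.32). E-box letters were in 11.9% of member windows, 10.5% of those under regions of all 3 lists and 7.91% of all windows. The other 4, RUNX, IRF, GATA and the CTCF core, differed between member windows and those under regions of all 3 lists by under 2 points. Of all windows 4.73% held RUNX, 3.36% IRF, 2.63% GATA and 13% CTCF core letters. These shares describe promoters only, as no genome sequence was at hand for distal members.

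**Figure D5:**
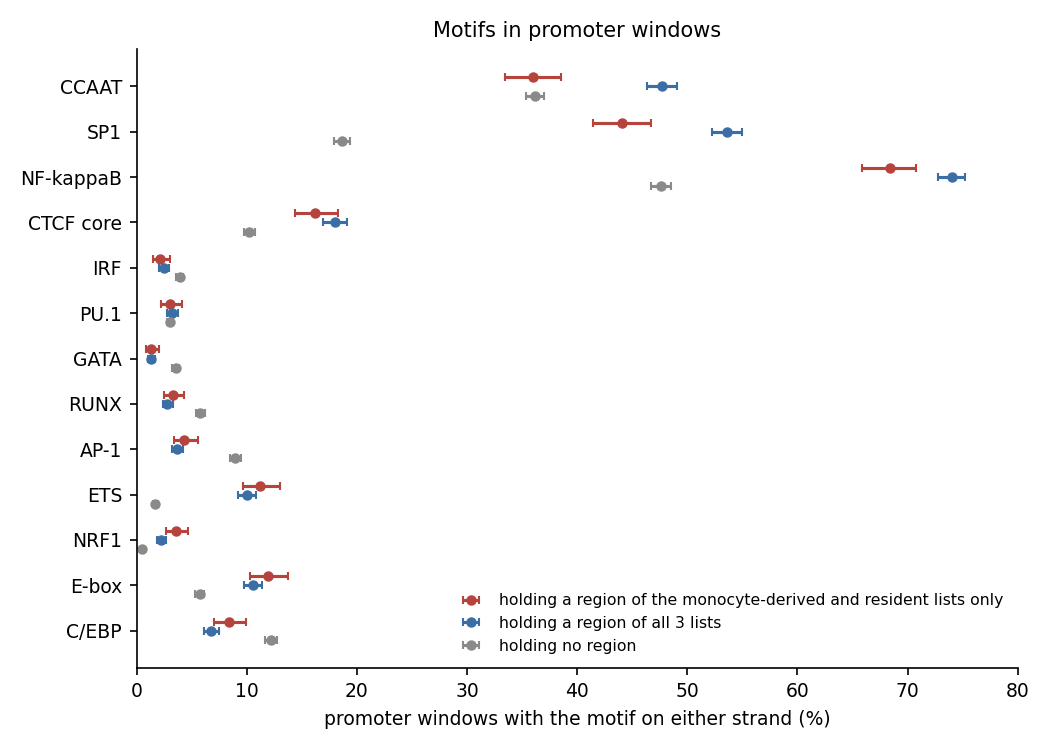
Points give the share (%) of promoter windows that hold each motif on either strand, with 95% Wilson intervals, for windows under members (red), under regions of all 3 lists (blue) and with no region (grey). The widest gap between red and blue is at CCAAT, 36.0% against 47.7%, and the PU.1 points stand at 3.04% and 3.25%.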

How the data were processed

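ATAC-seq peak lists of 9 samples (3 groups of 3) were used. The authors deposited 1 merged list per group, whose score column holds a peak p-value between 1e-12 and 1.50e-05. Per the submitters' processing notes, alignment used Bowtie2 2.2.9 and the build mm10 (GRCm38). The sources used here do not give the peak caller, its threshold, any read shift for the transposase or how replicates were merged, which can all change the weak peaks of a list. Depth is unknown.

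Peaks on chromosomes 1 to 19 and X were merged at an overlap of 1 bp. Gene bodies came from RefSeq (GRCm38.p6), with no strand or exons, and transcription starts and promoter sequences from the RefSeq promoter table. Exonic, intronic and UTR positions are therefore not stated. A region within 10 kb of several genes counts for each. Regions, 23 gene lists (351 genes) and motifs were chosen with earlier results of these data known. Genes are named by rule: the 3 of each list and the 10 overall with most members, the 20 members ranked first by p-value across both lists, the 10 widest, the 5 densest windows and 19 fixed genes; other list members were named after their values were seen. Some list genes that count in the totals are not reported here by name. Alternatives were stricter p-values, equal list lengths, other overlaps and gene windows. Shares have Wilson and differences Newcombe intervals. Scripts ran in Python 3.11.15 with pandas 2.3.3, numpy 2.4.6 and, for figures, matplotlib 3.10.9.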

Additional observations from a re-analysis of the deposited data

How the results depend on the processing

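The number of member regions was 679 at p at most 1e-06, 603 at p at most 1e-10 and 1307 at equal list lengths. At these 3 settings members made up 20.1%, 22.7% and 17.6% of shared regions, were found at 4.06%, 3.59% and 6.85% of genes, and gave 14, 9 and 40 regions over the gene lists, against 166. At p at most 1e-06 and 1e-10, 66.7% and 69.7% of members lay near a gene end, 83.5% and 85.2% inside a gene, and the median width was 300 and 325 bp. The difference to regions of all 3 lists near gene ends was -18.2 points at p at most 1e-05, -8.93 at 1e-06, -8.80 at 1e-10, -22.6 at equal lengths, -20.7 with peaks within 200 bp merged and -22.7 with no converted peak within 1 kb. The CCAAT share of member windows was 43.6%, 47.2% and 39.2% at p at most 1e-06, 1e-10 and equal lengths. At p at most 1e-05 members were 31.3% of shared regions and reached 17.8% of genes. With peaks within 200 bp merged the shares were 32.4% of shared regions, 36.1% near a gene end and 19.9% of genes. With no converted peak within 1 kb they were 26.4%, 35.6% and 17.8%, with 67.6% inside a gene. Within 2.5 kb of a gene end lay 49.0% of members. Genes with a member were 14.8% by gene body alone, 41.1% with 50 kb on each side, where the gene lists held 324 regions, and 18.7% by nearest gene end. Both differences to regions of all 3 lists kept their sign. Lineage genes no longer stood above the share of all genes at equal list lengths (1 of 18, against 6.85%) and at p at most 1e-06 (0 of 18, against 4.06%). The CCAAT share of member windows passed the 38.5% of all windows at the 2 strictest p-values. At equal lengths its interval (34.4 to 44.3%) held 38.5%. No paired analysis was possible because a merged list per group carries no replicate number, and for the same reason no replicate could be left out. The causes of these shifts were not tested. Unknown depth limits every absence from the converted list.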

Other observations

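Members lay within 1 kb of 27 of the 1005 microRNA hairpins of the RefSeq table, among them Mir191 and Mir425, which share a transcript, and Mir423, Mir574, Mir130b and Mir301b. For 807 genes the members were the only regions of any list over the gene and its flanks of 10 kb. These are counts of positions, with no background share computed and no test run on them.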
